A study of Mus musculus with 10 samples.

Results

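The genes that carry a cell from G1 into S phase were followed as a set of 10: the D-type cyclins Ccnd1, Ccnd2 and Ccnd3, the E-type cyclins Ccne1 and Ccne2, the cyclin A gene Ccna2, the kinases Cdk4 and Cdk6, and the inhibitors Cdkn1a, which encodes p21, and Cdkn1b, which encodes p27. They were chosen by symbol for their role, and they were 10 of the 22373 genes in the table. Ribosome-protected mRNA fragments (RPFs, or footprints) were counted in the neocortex of wild-type CD-1 mice at 5 stages, the embryonic days E12.5, E14, E15.5 and E17, and P0, the day of birth. No stage was treated with a drug or carried an altered allele, and no agent was added to stall ribosomes. Each stage had 2 libraries, each from a pool of brains of both sexes, so n = 2 pools per stage throughout and a replicate is not a single animal. All 10 genes reached 32 footprints in the sum of a stage's 2 libraries, the filter that kept 13484 genes.

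Entry into S phase is controlled by kinases that are inactive without a cyclin. D-type cyclins activate Cdk4 and Cdk6, which phosphorylate the retinoblastoma proteins and so release E2F transcription factors, and cyclins E and A then activate Cdk2. The proteins p21 and p27 bind these complexes and restrain them, and p27 is marked for destruction by the ubiquitin ligase subunit Skp2. In the developing neocortex, progenitors lengthen G1 as neurogenesis proceeds, and neurons leave the cycle for good. A footprint count reflects both the amount of an mRNA and the ribosomes on it. In whole tissue, fewer cells of a type and fewer footprints per cell cannot be told apart.

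Footprints do not measure promoters, and the upstream sequences are shown only to place regulator motifs beside genes that moved in different ways. RefSeq promoter sequence (GRCm38.p6) was matched for 6 of the 10 genes, with 8 promoters. None was matched for Ccnd1, Ccnd2, Ccne2 or Ccna2, so the motif searches do not cover them. In the lines below, each of 250 bases ending just before the annotated start and written along the gene's strand, capitals mark CACGTG (the core bound by Myc and related factors) for Cdk4, ACATGTC on either strand (letters found in sites bound by p53) for Cdkn1a, and GGGCGG on either strand (the core bound by Sp1) for Ccne1.
Cdk4, chr10:127063285-127063534, plus strand: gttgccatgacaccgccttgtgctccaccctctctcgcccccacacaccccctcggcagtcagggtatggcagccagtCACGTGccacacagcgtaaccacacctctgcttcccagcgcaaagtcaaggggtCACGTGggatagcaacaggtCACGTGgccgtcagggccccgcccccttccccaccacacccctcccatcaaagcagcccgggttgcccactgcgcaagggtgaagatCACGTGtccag
Cdkn1a, chr17:29090729-29090978, plus strand: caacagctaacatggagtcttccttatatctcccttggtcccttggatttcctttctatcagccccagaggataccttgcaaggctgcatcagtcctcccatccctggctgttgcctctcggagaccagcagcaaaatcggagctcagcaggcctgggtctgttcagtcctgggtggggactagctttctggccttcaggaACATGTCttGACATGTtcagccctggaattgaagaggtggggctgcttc
Ccne1, chr7:38107491-38107740, minus strand: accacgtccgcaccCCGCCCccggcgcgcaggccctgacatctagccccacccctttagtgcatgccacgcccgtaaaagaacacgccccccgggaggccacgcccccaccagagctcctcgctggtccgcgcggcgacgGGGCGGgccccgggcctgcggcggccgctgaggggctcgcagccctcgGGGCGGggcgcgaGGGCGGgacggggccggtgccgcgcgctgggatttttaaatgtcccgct
The Cdk4 window held CACGTG 4 times, beginning 172, 118, 98 and 11 bases before the start, and 6.02% of 32851 promoter windows of this length held it at least once. The 2 ACATGTC matches upstream of the first Cdkn1a start lay on opposite strands and began 49 and 40 bases before it, with such a match in 1.62% of all windows. These 2 motifs were chosen after the sequences had been seen. GGGCGG occurred 4 times upstream of Ccne1 and in 32.7% of all windows. It also occurred upstream of Ccnd3, Cdk4, Cdkn1b and the other Cdkn1a start, and is left in lower case in the Cdk4 line. CACGTG was also found upstream of Cdk6, and the window of the other Cdkn1a start held no ACATGTC match. So neither GGGCGG nor CACGTG was particular to the gene it is marked for. The E2F forms GCGGGAA and GCGCCAA, present in 3.82% and 1.97% of windows and either of them in 5.62%, and TTTGAA, present in 16.0%, were absent from all 8 windows, where both strands were searched. A match is a string of letters and not a measured site, and overlap between motifs was not resolved.

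Library totals ran from 7544404 (P0 replicate 1) to 36129988 counts. Histone genes held 33.8% to 39.6% of the counts at E12.5 and E14 and 6.60% to 10.1% at P0, so levels are given as CPM, counts relative to a TMM-scaled library size, which uses the bulk of genes as its reference. The P0 replicates stood further apart than the others: the SD of the log2 ratio between replicates over 4559 genes was 0.54 at P0 and 0.13 to 0.22 at the other stages. Values were compared within a gene, since gene lengths were not used here and CPM are not levels per length. Calls of change are from limma-voom and need an adjusted p (Benjamini-Hochberg over all genes kept) below 0.05 together with a log2 fold change of 0.32 or more in size.

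From E12.5 to P0, footprints on all 6 cyclin genes and both kinase genes fell, while neither inhibitor was called changed. The falls ran from 2.06-fold for Cdk6 to 16.2-fold for Ccna2. The 8 genes called were all lower, against a background in which 62.1% of all genes tested were called, 32% lower and 30.1% higher. The median fitted log2 fold change was -1.93 for the 10 genes and -0.013 for all genes. In the moderated F test over the 5 stages, all 10 were called, with 63.8% of all genes. Scaling by total counts alone moved the median of all genes by 0.53 on the log2 scale, from -0.013 to 0.51. With that scaling the same 8 genes were lower, while Cdkn1a and Cdkn1b were called higher, beside 8949 of all genes called in either direction.

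**Figure D1:**
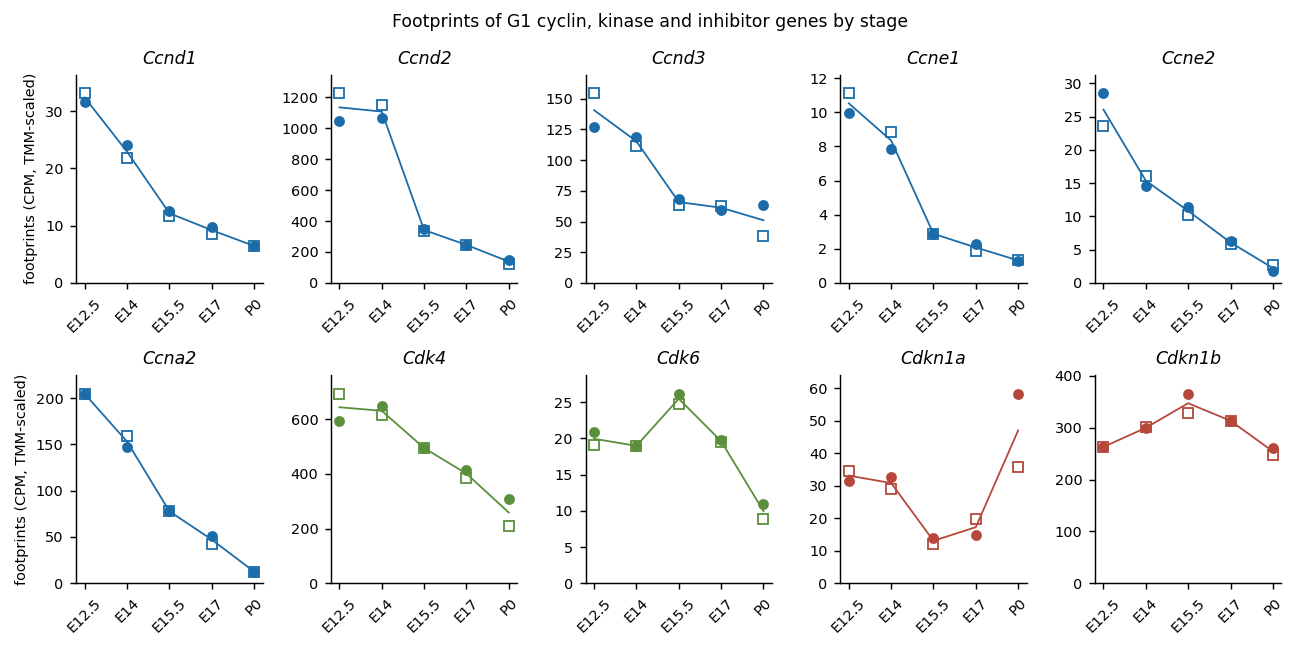
Footprint level of each gene (vertical axis, CPM from 0 with TMM-scaled library sizes) at each stage (horizontal axis), with filled circles for replicate 1, open squares for replicate 2 and a line through the stage means; cyclins are blue, kinases green and inhibitors red. Cyclin levels decline from E12.5 to P0, Cdk6 and Cdkn1b have their highest means at E15.5, and Cdkn1a has its lowest at E15.5 and its highest at P0.

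Ccnd2 (ENSMUSG00000000184), the D-type cyclin whose mRNA is carried to the basal endfeet of radial glia, stayed high through E14 and then dropped. Its level was 1044 and 1223 CPM in the E12.5 pools, 1065 and 1149 in the E14 pools, 347 and 337 in the E15.5 pools, 248 and 243 in the E17 pools, and 150 and 125 in the P0 pools. The replicates of E12.5 and E14 overlapped, and every later stage lay below the one before it without overlap. The step from E14 to E15.5 lowered it 3.24-fold (log2 fold change -1.69, SE 0.12, adjusted p = 7.63e-05). Over the whole span it fell 8.27-fold (log2 -3.05, SE 0.12, adjusted p = 6.07e-07).

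Ccnd1 (ENSMUSG00000070348), the D-type cyclin that many mitogens induce, had a lower level at each stage than at the one before. It had 31.7 and 33.1 CPM in the E12.5 pools, 24.1 and 21.8 in the E14 pools, 12.7 and 11.7 in the E15.5 pools, 9.81 and 8.64 in the E17 pools, and 6.53 and 6.40 in the P0 pools. No neighbouring stages overlapped. The P0 level was 5.02-fold lower than that of E12.5 (log2 -2.33, SE 0.12, adjusted p = 1.71e-06), and the step to E15.5 was called as well (log2 -0.91, SE 0.11, adjusted p = 0.000539). The step from E17 to P0 was called (log2 -0.52, SE 0.13, adjusted p = 0.025), also by edgeR, with the replicate block and with both other scalings. It was not called in DESeq2 (adjusted p = 0.0529), with quality weights (0.237) or in a fit of those 2 stages alone (0.184). Nor was it called without either E17 library, E15.5 replicate 2 or P0 replicate 2. On leaving out single libraries its log2 fold change ran from -0.61 to -0.42.

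Ccnd3 (ENSMUSG00000034165), the remaining D-type cyclin, had a fitted fall of 2.91-fold over the span. Its level was 127 and 154 CPM in the E12.5 pools, 119 and 112 in the E14 pools, 68.4 and 63.4 in the E15.5 pools, 59.5 and 63.1 in the E17 pools, and 63.6 and 38.5 in the P0 pools. The P0 replicates lay on either side of both E17 replicates. The fall from E14 to E15.5 was called (log2 -0.81, SE 0.20, adjusted p = 0.0154), and those of the later steps were not. The call was lost when any E14 or E15.5 library was left out (adjusted p = 0.0604 to 0.0935), and with scaling by total counts alone (log2 -0.51, adjusted p = 0.0736). That fall from E12.5 to P0 was called (log2 -1.54, SE 0.21, adjusted p = 0.000287).

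Within each library, the footprints on D-type cyclins shifted in makeup as their sum fell. Ccnd2 held 86.8% ± 0.060 (SD, n = 2) of the D-type counts in the E12.5 pools, 88.9% ± 1.02 in the E14 pools, 81.4% ± 0.50 in the E15.5 pools, 77.7% ± 0.64 in the E17 pools and 70.9% ± 3.86 in the P0 pools. The share of Ccnd3 was 10.8% ± 0.26, 9.28% ± 0.82, 15.7% ± 0.42, 19.4% ± 0.89 and 25.7% ± 4.42 at the same stages. That of Ccnd1 stayed between 1.70% and 3.75% in all libraries. These are shares of counts, not adjusted for coding length, so their change over stages is the readout and not their size. The ratio of Ccnd2 to Ccnd3 counts went from 8.07 at E12.5 to 2.77 at P0 (geometric means, change of log2 ratio -1.54). It differed between stages in an exact permutation test over the 945 partitions of the libraries (p = 0.0010582, the smallest the design allows, adjusted p = 0.00265 over 5 ratios). That test sets the spread between all stages against the spread within them. It has no direction and does not single out P0 against E12.5. The ratio of Ccnd2 to Ccnd1 went from 34.9 to 21.2 after a high of 48.3 at E14 (change of log2 ratio from E12.5 to P0 -0.72). It differed between stages as well (exact permutation p = 0.0021164, adjusted p = 0.00353).

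**Figure D2:**
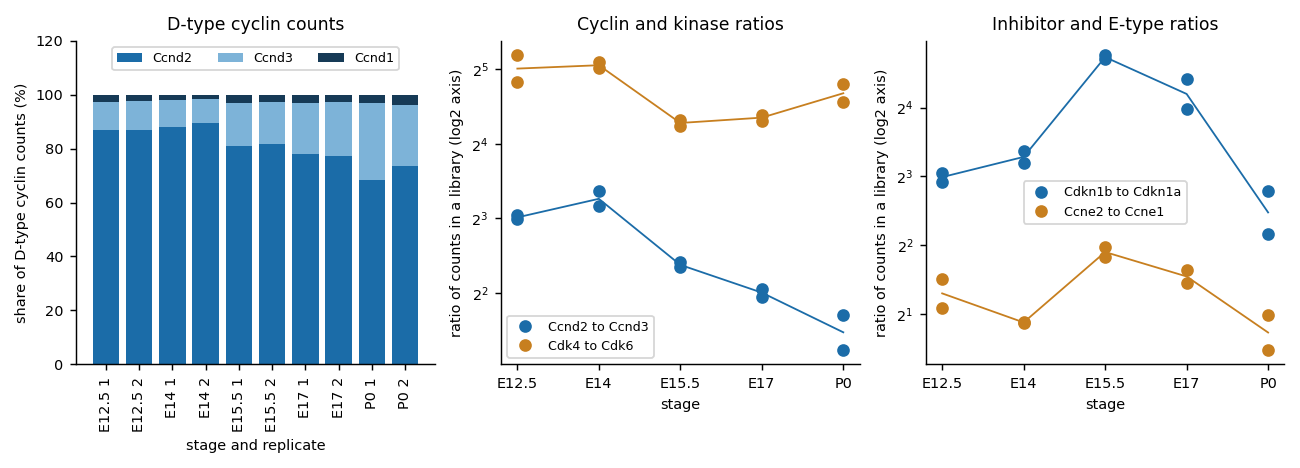
Left, share of D-type cyclin counts (%) held by Ccnd2, Ccnd3 and Ccnd1 in each library; middle and right, ratios of counts of gene pairs within a library on a log2 axis by stage, with a point per library and lines through the stage geometric means. The Ccnd2 to Ccnd3 ratio drops from 9.59 at E14 to 2.77 at P0, and the Cdkn1b to Cdkn1a ratio rises to 26.6 at E15.5 and drops to 5.57 at P0.

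The E-type and A-type cyclins, which act at the start of S phase and through it, had fitted falls of 7.83-fold to 16.2-fold over the span, where Cdk4 and Cdk6 had 2.53-fold and 2.06-fold. Apart from the ratios given here, these differences between genes were not tested. Ccna2 (ENSMUSG00000027715), the cyclin that partners Cdk2 in S phase and Cdk1 later, had 204 and 205 CPM in the E12.5 pools, 147 and 159 in the E14 pools, 77.9 and 77.7 in the E15.5 pools, 51.5 and 42.8 in the E17 pools, and 12.6 and 12.6 in the P0 pools. Each stage was below the one before with no overlap, and the fall to P0 was 16.2-fold (log2 -4.02, SE 0.12, adjusted p = 4.05e-07). Its step from E17 to P0 alone was 3.73-fold (log2 -1.90, SE 0.12, adjusted p = 0.000264).

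Ccne1 (ENSMUSG00000002068) footprints dropped mostly by E15.5, from 9.96 and 11.1 CPM in the E12.5 pools and 7.86 and 8.84 in the E14 pools to 2.89 and 2.87, then 2.29 and 1.88 in the E17 pools and 1.31 and 1.34 in the P0 pools. The step from E14 to E15.5 was 2.89-fold (log2 -1.53, SE 0.14, adjusted p = 0.000172), and the whole fall 7.83-fold (log2 -2.97, SE 0.18, adjusted p = 3.41e-06). At P0 these levels rested on 12 and 56 counts.

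Ccne2 (ENSMUSG00000028212), its paralogue, declined in a more even course. It had 28.5 and 23.6 CPM in the E12.5 pools, 14.6 and 16.1 in the E14 pools, 11.5 and 10.2 in the E15.5 pools, 6.29 and 5.89 in the E17 pools, and 1.85 and 2.65 in the P0 pools, where it rested on 17 and 111 counts. It was called lower at 3 of the 4 steps. The call from E14 to E15.5 was lost when any library of those stages was left out (log2 -0.59 to -0.42). It was also lost with scaling by total counts alone (log2 -0.21, adjusted p = 0.291). The call from E15.5 to E17 held with that scaling. It was lost when any library of those stages was left out (log2 -0.91 to -0.74). That from E17 to P0 was lost with quality weights (adjusted p = 0.0796) and in a fit of those 2 stages alone (adjusted p = 0.0883). Ccne2 was 10.5-fold lower over the span (log2 -3.39, SE 0.19, adjusted p = 2.26e-06). The ratio of Ccne2 to Ccne1 counts was 2.46 in the E12.5 pools, 1.84 in the E14 pools, 3.74 in the E15.5 pools, 2.92 in the E17 pools and 1.66 in the P0 pools, and it differed between stages (exact permutation p = 0.00952, adjusted p = 0.0116). That call was lost without E15.5 replicate 1 (exact permutation, adjusted p = 0.0624).

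Cdk4 (ENSMUSG00000006728), a partner of D-type cyclins, had a lower footprint level at each stage after E14 than at the one before. Its level was 594 and 693 CPM in the E12.5 pools and 647 and 614 in the E14 pools. It was 493 and 495 in the E15.5 pools, 415 and 386 in the E17 pools, and 306 and 211 in the P0 pools. Only E12.5 and E14 overlapped among neighbouring stages. It was 2.53-fold lower at P0 than at E12.5 (log2 -1.34, SE 0.17, adjusted p = 0.000183), and of the single steps only the one from E17 to P0 was called (log2 -0.66, SE 0.17, adjusted p = 0.0271). The call on that step was lost without either E15.5 or either E17 library, at an adjusted p of 0.0539 to 0.161, with quality weights (0.0914), and with scaling by total counts (0.053) or by counts outside histone genes (0.0525). That fall had a fitted log2 size of -0.92 when P0 replicate 1 was left out and -0.36 when P0 replicate 2 was. The step from E14 to E15.5 (log2 -0.35, adjusted p = 0.138) was called with quality weights, without either P0 library and in a fit of those stages alone (adjusted p = 0.00453 to 0.011).

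Cdk6 (ENSMUSG00000040274), the other partner of D-type cyclins, was highest at E15.5. Its level was 20.8 and 19.0 CPM in the E12.5 pools, 19.0 and 19.0 in the E14 pools, 26.2 and 24.8 in the E15.5 pools, 19.8 and 19.4 in the E17 pools, and 10.99 and 8.93 in the P0 pools. The E15.5 libraries were above those of all other stages and the P0 libraries below them. It rose 1.34-fold from E14 to E15.5 (log2 0.43, SE 0.11, adjusted p = 0.0187), a call lost when any E14 or E15.5 library was left out (adjusted p = 0.073 to 0.123). It then fell 2.04-fold from E17 to P0 (log2 -1.03, SE 0.12, adjusted p = 0.00203). The count ratio of Cdk4 to Cdk6 was 32.2 for E12.5, 33.2 for E14, 19.4 for E15.5, 20.4 for E17 and 25.6 for P0 (exact permutation p = 0.0116, adjusted p = 0.0116). Without E15.5 replicate 1 the adjusted p of this exact permutation test was 0.0556.

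Cdkn1a (ENSMUSG00000023067), the p21 gene that p53 induces, was lowest in the middle of the series and highest at birth. It had 31.6 and 34.7 CPM in the E12.5 pools, 32.6 and 29.1 in the E14 pools, 13.98 and 12.16 in the E15.5 pools, 14.7 and 19.8 in the E17 pools, and 58.3 and 35.8 in the P0 pools. Both P0 libraries were above all others, although they differed by 0.70 on the log2 scale, and E12.5 and E14 overlapped. It fell 2.35-fold from E14 to E15.5 (log2 -1.23, SE 0.24, adjusted p = 0.00475) and rose 2.61-fold from E17 to P0 (log2 1.38, SE 0.23, adjusted p = 0.00622). The rise was not called without E17 replicate 1 (log2 1.17, adjusted p = 0.0635). P0 against E12.5 was not called (log2 0.42, 95% interval -0.10 to 0.95, adjusted p = 0.137), but it was without P0 replicate 2 (log2 0.85, adjusted p = 0.00353).

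Cdkn1b (ENSMUSG00000003031), the p27 gene associated with leaving the cycle, stayed between 248 and 365 CPM in all 10 libraries. It had 262 and 263 CPM in the E12.5 pools, 299 and 301 in the E14 pools, 365 and 329 in the E15.5 pools, 313 and 314 in the E17 pools, and 261 and 248 in the P0 pools. No neighbouring ranks overlapped, with E15.5 at the top, then E17, E14, E12.5 and P0. No step was called, although the step from E14 to E15.5 was called higher with scaling by total counts alone (log2 0.50, adjusted p = 0.0034). Under that scaling the median of all genes in this step was 0.29, against -0.0086 with TMM scaling. The step from E17 to P0 passed the adjusted p but was under the threshold of size (1.23-fold lower, log2 -0.30, SE 0.088, adjusted p = 0.0445), and it was called without P0 replicate 1 (log2 -0.34, adjusted p = 0.0187). The F test was passed (adjusted p = 0.00973), but not without E15.5 replicate 1. P0 against E12.5 gave a log2 fold change of -0.049 (95% interval -0.25 to 0.15, adjusted p = 0.649). Its sign turned with scaling by total counts alone (log2 0.48, adjusted p = 0.0021), and stood at -0.034 once the median of all genes under that scaling was subtracted.

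**Figure D3:**
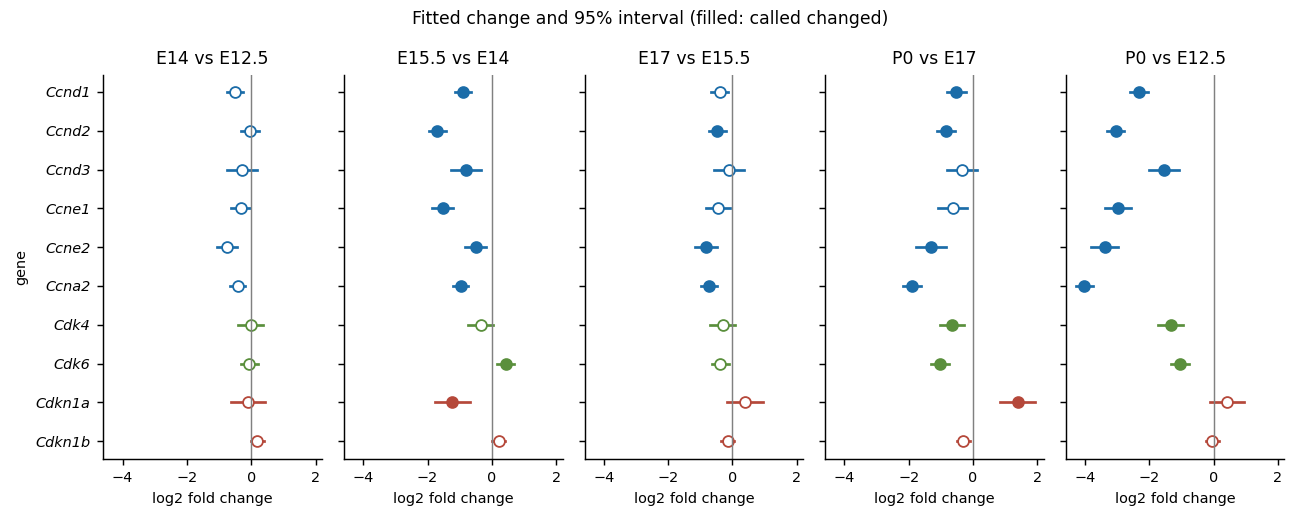
Fitted log2 fold change (horizontal axis) with its 95% interval for each gene in the 4 steps between adjacent stages and in P0 against E12.5, from limma-voom over all 10 libraries; filled points were called changed. From E14 to E15.5, Cdk6 lies above 0 and 7 called genes below it, and from E17 to P0 Cdkn1a lies above 0 and 6 called genes below it.

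Against the D-type cyclins, whose sum fell, both inhibitors and both kinases gained in counts between E12.5 and P0. For every 100 D-type cyclin counts there were 20.2 ± 2.22 (SD, n = 2) Cdkn1b counts in the E12.5 pools, 24.1 ± 0.89 in the E14 pools, 82.7 ± 3.90 in the E15.5 pools, 99.1 ± 0.61 in the E17 pools and 131.9 ± 19.4 in the P0 pools. The same measure for Cdkn1a was 2.54 ± 0.12, 2.48 ± 0.30, 3.11 ± 0.22, 5.46 ± 1.17 and 23.7 ± 3.85. Between E12.5 and P0, Cdk4 went from 49.2 ± 0.21 to 131.3 ± 10.8 and Cdk6 from 1.54 ± 0.27 to 5.11 ± 0.18. These measures do not depend on how libraries were scaled, but they carry no test of their own. The ratio of Cdkn1b to Cdkn1a counts was 7.94 in the E12.5 pools, 9.73 in the E14 pools, 26.6 in the E15.5 pools, 18.3 in the E17 pools and 5.57 in the P0 pools (exact permutation p = 0.00106, adjusted p = 0.00265).

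By step, the set moved mainly between E14 and E15.5 and between E17 and P0. From E12.5 to E14, limma-voom called 0 of the 10 genes, where 4 had an unadjusted p under 0.05, as did 2137 of all 13484 genes. For that step edgeR called 0 and DESeq2 called 3 (Ccnd1, Ccne2 and Ccna2, all lower). Of all genes, limma-voom called 86 (0.638%, with 0.497% higher and 0.141% lower), edgeR 85 and DESeq2 388. From E14 to E15.5, 8 were called, 7 lower and 1 higher, beside 36.1% of all genes, 19.6% lower and 16.5% higher. With scaling by total counts alone, 5 were lower in this step and 2 higher (Cdk6 and Cdkn1b), beside 6059 of all genes called in either direction. The median of all genes was then 0.29. From E15.5 to E17, Ccnd2 (log2 -0.48, SE 0.12, adjusted p = 0.0433), Ccne2 (log2 -0.83, SE 0.15) and Ccna2 (log2 -0.73, SE 0.11) were called lower, beside 9.04% of all genes, 3.43% lower and 5.61% higher. That Ccnd2 call was not made by edgeR (adjusted p = 0.0568), with the replicate block (0.0719) or without a low-count filter (0.0659). It was lost with a mean of at least 100 counts (0.0573). Scaling by total counts alone (0.0709) or by counts outside histone genes (0.0599) lost it too. DESeq2, quality weights and a fit of those 2 stages alone made it. Leaving out any E12.5, E14, E15.5 or E17 library lost it (log2 -0.50 to -0.45), and leaving out either P0 library did not. All calls of this step were lost when any E15.5 or E17 library was left out, as were nearly all of those over all genes. From E17 to P0, 7 were called, 6 lower and 1 higher, beside 20.5% of all genes, 11.1% lower and 9.46% higher. This count was 4 without E17 replicate 1, and a fit of those 2 stages alone called 0 of the 10 genes. The steps share stages, so their values are not independent of each other.

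The other genes of the pathway were read from lists of known members, and counts of lower or higher genes in these lists are of called genes. Of all genes, 32% were called lower and 30.1% higher over the span. From E14 to E15.5, 19.6% of all genes were called lower and 16.5% higher. Of 13 other cyclins, CDKs and CDK regulators, 12 were lower at P0 than at E12.5 and 0 higher, and 11 were lower at E15.5 than at E14. The largest called falls were those of Ccnb1, the mitotic cyclin B1 gene (239 and 252 CPM at E12.5, 12.51 and 14.99 at P0, log2 -4.13, SE 0.11, adjusted p = 3.74e-07), and Cdc25c, a phosphatase that activates Cdk1 (log2 -4.12, SE 0.25). Cdk7, a kinase that also works in transcription, was the 1 gene not called over the span (log2 -0.22, adjusted p = 0.108). The list had a median log2 fold change of -3.33 over the span and -0.86 from E14 to E15.5, where all genes had -0.013 and -0.0086.

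Among genes that E2F factors switch on for DNA synthesis, 14 of 14 were lower at P0 than at E12.5 and 14 of 14 at E15.5 than at E14, with medians of -3.21 and -1.03. Cdc6, which loads the replicative helicase, went from 23.9 and 27.7 CPM at E12.5 to 1.31 and 1.41 at P0 (log2 -4.20, SE 0.23, adjusted p = 2.07e-06). Tk1, thymidine kinase, went from 40.81 and 47.05 CPM to 2.72 and 2.72 (log2 -4.00, SE 0.14). Every P0 library was below every E12.5 library for both genes.

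Of 13 retinoblastoma and E2F family genes, 11 were lower over the span and 1 higher, and 8 were lower from E14 to E15.5, with medians of -1.89 and -0.54. The largest called falls were those of E2f2 (log2 -3.87, SE 0.62), which had 0.218 and 0.119 CPM at P0, and E2f7, an E2F that represses transcription (log2 -3.86, SE 0.31). Rbl2, which encodes the pocket protein p130 of quiescent cells, rose from 5.01 and 4.45 CPM at E12.5 to 7.83 and 7.56 at P0 (log2 0.70, SE 0.14, adjusted p = 0.00212). Rb1 itself was not called (log2 -0.29, adjusted p = 0.0958).

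The other CDK inhibitors moved less and in both directions, with 3 of 5 listed genes tested. Cdkn2d, the p19 gene of the INK4 family that binds Cdk4 and Cdk6, rose (29.3 and 38.6 CPM at E12.5, 69.5 and 44.3 at P0, log2 0.68, SE 0.22, adjusted p = 0.0259). Its relative Cdkn2c fell (log2 -0.96, SE 0.21), as did Cdkn1c, the p57 gene (113 and 127 CPM at E12.5, 101 and 60.4 at P0, log2 -0.65, SE 0.22, adjusted p = 0.0332). Scaling by total counts alone left 1 higher and 0 lower of these 3, and without P0 replicate 1 there were 0 higher and 2 lower. From E14 to E15.5, 1 of the 3 was lower, where 19.6% of all genes were. The list's medians were -0.65 over the span and -0.39 for that step. The median over the span was -0.87 without P0 replicate 1, -0.21 without P0 replicate 2 (1 higher and 1 lower) and -0.12 by total counts alone.

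Genes whose products degrade or mark G1 proteins split by direction over the span, 5 higher and 3 lower of 8, with a median of 0.41. Of all genes, 30.1% were higher and 32% lower. Skp2, the ligase subunit that targets p27, fell from 71.8 and 77.6 CPM at E12.5 to 5.11 and 5.25 at P0 (log2 -3.84, SE 0.15, adjusted p = 6.07e-07). Fbxw7, the ligase subunit that targets cyclin E, rose from 17.1 and 16.6 to 50.1 and 66.8 CPM (log2 1.80, SE 0.14, adjusted p = 1.31e-05). Fbxo31, a ligase subunit for cyclin D1, also rose (log2 1.83, SE 0.24), and Rbx1, a core subunit of these ligases, fell (log2 -0.52, SE 0.089). Scaling by total counts alone left 5 higher and 1 lower. From E14 to E15.5, 4 of the 8 were higher and 1 lower, with a median of 0.33, where 16.5% of all genes were higher and 19.6% lower. When libraries were scaled by counts outside histone genes, 2 were higher.

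The targets of p53, of which Cdkn1a is another, had called genes in both directions. Of 12 listed, 11 were tested, and 4 were higher and 5 lower over the span (median -0.36), where 30.1% of all genes were higher and 32% lower, with 3 higher and 3 lower from E14 to E15.5 (median -0.13), where these backgrounds were 16.5% and 19.6%. Plk2, a kinase of neurons as well, rose from 7.81 and 7.70 CPM at E12.5 to 59.6 and 78.5 at P0 (log2 3.16, SE 0.15), and Bbc3, which encodes the cell death protein PUMA, rose from 2.86 and 1.68 to 14.2 and 10.5 (log2 2.46, SE 0.26). Btg2, an antiproliferative gene of neurogenic progenitors, fell from 25.5 and 30.7 to 3.263 and 2.697 CPM (log2 -3.30, SE 0.16), and Trp53inp1 fell as well (log2 -2.06, SE 0.14). With scaling by total counts alone the list had 5 higher and 3 lower over the span, with a median of 0.15. From E14 to E15.5 that scaling gave 3 higher and 1 lower, with a median of 0.16. The medians of all genes were then 0.51 and 0.29. Without P0 replicate 2 the list's median over the span was 0.082, where all genes had -0.074.

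**Figure D4:**
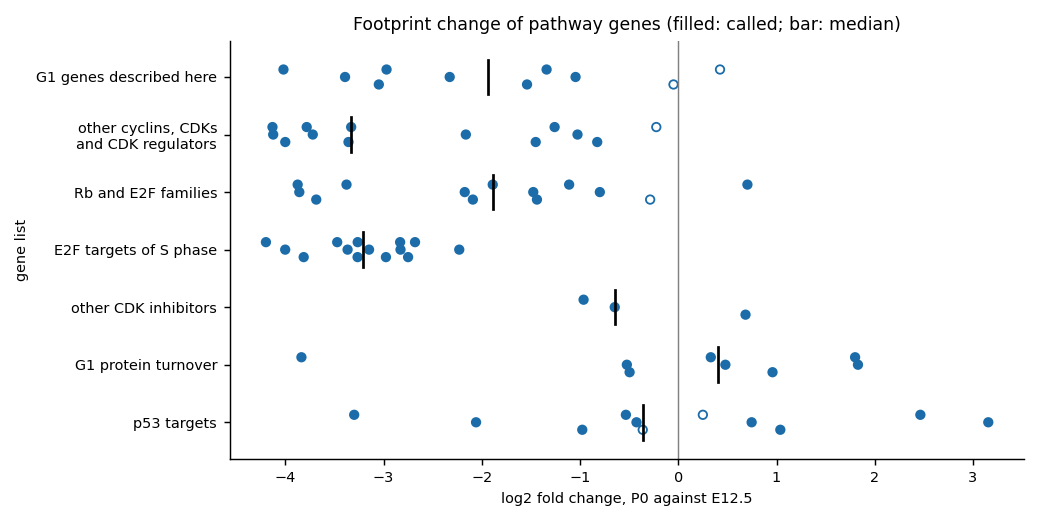
Fitted log2 fold change of P0 against E12.5 (horizontal axis) for each tested gene of the G1 set and of 6 pathway lists (vertical axis), with filled points for called genes and a black bar at each list's median. All 14 E2F target genes lie below 0, with a median of -3.21, while the protein turnover and p53 target lists lie on both sides of 0.

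Markers of cell types moved over the same stages, and their part in the results above was not tested. Their counts stand beside 32% of all genes called lower and 30.1% higher from E12.5 to P0. From E14 to E15.5 these shares were 19.6% and 16.5%. Of 9 apical progenitor markers, 7 were lower and 2 higher (Fabp7 and Slc1a3) at P0 than at E12.5, while their summed level was 2130 to 2505 CPM from E12.5 to E17 and 1455 to 1992 at P0. Fabp7 alone held 1972 and 2136 CPM of that sum at E17, and the other 8 together went from 1252 to 1330 CPM in the E12.5 pools to 569 to 595 at E15.5, 369 to 410 at E17 and 228 to 247 at P0. Intermediate progenitor markers were lower in 5 of 5, from a sum of 226 to 274 CPM in the E12.5 pools and 288 to 327 in the E14 pools to 144 to 162 in the E15.5 pools and 19.2 to 31.1 in the P0 pools. Neuron markers were higher at P0 than at E12.5 in 8 of 10, and their sum went from 2138 to 2155 CPM in the E12.5 pools and 2912 to 2965 in the E14 pools to 5986 to 6152 in the E15.5 pools and 6887 to 7566 in the P0 pools. Between E14 and E15.5, the step at which Ccnd2, Ccne1 and Cdkn1a fell, markers of tissue around the neocortex fell too. The summed level of choroid plexus markers went from 1124 to 1130 CPM to 11.1 to 13.6, with Cldn2, Prlr and Trpv4 at 0 in both E15.5 libraries and 6 of 6 tested genes lower. That of meningeal fibroblast markers went from 66.1 to 74.7 CPM to 2.74 to 3.40, with 8 of 8 lower. Red blood cell markers went from 10042 to 11056 CPM to 6906 to 7422 (6 of 9 tested lower), endothelial markers from 29.9 to 38.0 to 16.2 to 16.9 (7 of 8 lower, 1 higher), and microglial markers from 25.2 to 27.5 to 16.6 to 22.7 (4 of 6 lower). Ganglionic eminence and interneuron markers rose from 33.1 to 38.1 CPM to 120.6 to 125.4 (6 of 9 higher), and those of astrocytes and the oligodendrocyte lineage from 10.1 to 10.96 to 20.3 to 22.3 at this step (2 of 8 higher, 1 lower) and to 93.3 to 124.9 at P0 (7 of 8 higher than at E12.5).

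For 5 of the 6 members that averaged 500 counts or more per library, the genes most like each were named by the Pearson correlation of log2 CPM over the 10 libraries, among 4558 genes. The libraries share the stage trend and the scaling, so these values are descriptions. Ccnd2 was most like the histone genes Hist3h2a (r = 0.998), Hist1h2ac and Hist1h2ak (r = 0.996 for both), whose family has near-identical copies. Ccna2 was most like Cks2, a subunit of CDK complexes (r = 0.998), Clic4 and Cdk1 (r = 0.996 for both). Ccnd3 was most like Pagr1a, Gpc1 and Dctpp1 (r = 0.990 to 0.991), and Cdk4 most like Polr2h, Llgl1 and Tead2 (r = 0.986 to 0.990). Cdkn1a stood closest to Id3, an inhibitor of neurogenic transcription factors (r = 0.981), then Fh1 and Aldoa (r = 0.950 and 0.944).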

How the data were processed

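The members and gene lists were chosen with earlier results of these data known. The deposited values are whole-number footprint counts per gene, and column totals differ between libraries. Per the study's methods, the authors trimmed adapters, removed duplicate read sequences, discarded rRNA, tRNA and snoRNA reads, and aligned the rest with STAR (2.7.0 in the submitters' processing notes), keeping reads with several matches. For gene-level values the methods name DeepShape-prime and tximport, without saying whether this whole-number table is their output, so genes with near-identical copies are uncertain. The study's annotation was GENCODE M12, and the count table itself names no build. Of its gene identifiers, 22274 of 22373 matched a symbol.

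Counts were filtered, TMM-scaled (edgeR 4.0.16) and fitted by limma-voom (limma 3.58.1, R 4.3.3) with a coefficient per stage over all 10 libraries. Tests were two-sided. Ratios used counts plus 0.5. Code was tested on simulated data. Alternatives were edgeR's quasi-likelihood test, DESeq2 1.42.0, other scalings, filters, quality weights, a replicate block and leaving out each library. List counts under other scalings and without P0 libraries, and the progenitor sum without Fabp7, were added after seeing the data. Besides members, the 2 largest called rises and falls of each pathway list over the span are named, and cell type lists are given by counts and sums. Genes singled out for not being called were chosen after their values were seen. The genes most like Cdkn1b are not reported here.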

Additional observations from a re-analysis of the deposited data

How the results depend on the processing

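With 2 pools per stage, leaving out a library leaves 1 sample at its stage, which is then assumed to vary like the others, and 12 and 17 counts at P0 limit Ccne1 and Ccne2. Counts of called genes stayed within 1.5 times the value given for P0 against E12.5 and the F test under all alternatives run. For E14 against E12.5 the count was 3 with DESeq2, 1 with a mean of at least 100 counts, 2 with sample quality weights, and 0 to 3 when leaving out single libraries (3 without either P0 library). Calls over all genes moved with it, from 86 to 388, 154, 655 and, without a P0 library, 1062 or 1052. For E15.5 against E14 it was 9 with quality weights (6502 of all genes, against 4868) and 9 with only those stages (6338). It fell when any E14 or E15.5 library was left out and rose without either P0 library. Calls over all genes moved the same way in these refits. For E17 against E15.5 it was 6 with quality weights (3717 of all genes, against 1219), 5 with only those stages (3267), and 0 to 5 on leaving out single libraries (0 without any E15.5 or E17 library, 5 without either P0 library). For P0 against E17 it was 4 with quality weights (698 of all genes, against 2767), 0 with only those stages (where limma-voom called 0 of all genes, with 2962 at an unadjusted p under 0.05), and 4 to 9 on leaving out single libraries (4 without E17 replicate 1, with 552 of all genes).

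Of the single genes, 4 changed sign. In E14 against E12.5, scaling by total counts alone gave Ccnd2 a log2 fold change of 0.026 and Cdk4 0.032, and leaving out single libraries gave -0.15 to 0.083 and -0.14 to 0.086. In P0 against E17, Ccnd3 ran from -0.67 without P0 replicate 1, where it was called (adjusted p = 0.00682, limma-voom), to 0.086 without P0 replicate 2. In P0 against E12.5, Cdkn1b was 0.48 by total counts alone and -0.079 to 0.021 on leaving out single libraries. The cause of these changes was not tested.

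The labels do not say whether the replicate numbers pair the pools. Deviations of same-numbered libraries correlated at -0.63 to 0.43 over 10 pairs of stages, with 5 of these above 0.1. These values do not settle whether same-numbered pools share a batch. With the replicate block, 0, 8, 2, 7 and 8 genes were called in the order of the steps and the whole span, and 10 in the F test. Of all genes, 4, 4562, 819, 2124 and 8017 were called in the same order, and 8057 in the F test. Under the block the exact permutation test no longer passed for Ccne2 to Ccne1 (-0.57, adjusted p = 0.05) and Cdk4 to Cdk6 (-0.33, adjusted p = 0.05). On leaving out single libraries these log2 ratio changes ran from -0.82 to -0.32 and from -0.51 to -0.15.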

Other observations

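Together the 10 genes made up 0.200% and 0.215% of all counts in the E12.5 pools, 0.202% and 0.212% in the E14 pools, 0.150% and 0.144% in the E15.5 pools, 0.125% and 0.123% in the E17 pools, and 0.106% and 0.081% in the P0 pools. Of these genes, Ccnd3 (0.72), Cdkn1a (0.70) and Cdk4 (0.54) differed most between the P0 libraries, as the log2 CPM of replicate 1 minus that of replicate 2. Ccne2 differed the other way (-0.50), and Ccna2 differed by 0.0046.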
